A study of Mus musculus with 8 samples.

Results

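The 7 genes described here build, chaperone, load and switch on MHC class II: Cd74, H2-Aa, H2-Ab1, H2-Eb1, H2-DMa, H2-DMb1 and Ciita. They were chosen by name, not by a measured value, and all 7 were found among the 23091 genes of the tables. They were followed in 8 libraries with 1536 wells in all, 1 sorted cell per well. The cells came from C57BL/6N mouse embryos at embryonic day 9.5, of wild-type genotype, and from the extraembryonic part of their yolk sac. Of these libraries, 4 carry the label A1 and A2 cells, a pair of consecutive stages of yolk sac macrophage progenitors. The other 4 carry the label EMP, for erythromyeloid progenitors, from which A1 cells arise. All 8 share the strain, genotype, age, tissue, batch label and CD45-positive sort, and none was treated. The labels do not say how many embryos or litters a library holds, so p-values measure the spread between these libraries, which may in part be technical.

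MHC class II is a pair of chains, alpha and beta, that displays peptides from digested proteins to CD4 T cells. The chains are made around the invariant chain CD74, which is cut down to a fragment called CLIP in the endosome, and the H2-DM pair then exchanges CLIP for a peptide. CIITA is the master switch of the whole set and is itself made in few cell types, chiefly B cells, dendritic cells and activated monocytes and macrophages. Early yolk sac macrophages are generally known as low in MHC class II, whereas B cells are not known to arise as mature cells in the yolk sac at this stage.

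Wells with at least 1000 transcripts were kept. They numbered 568 of 768 for A1/A2 and 655 of 768 for EMP. Kept transcripts per library ranged from 2558197 to 3559612 in A1/A2 and from 3888853 to 5418136 in EMP, and the median well held 6153 and 20368 transcripts. The groups thus differed in depth per well, the A1/A2 wells being the shallower. All 8 libraries use the same set of well barcodes, so a barcode does not tell libraries apart. Macrophage genes, which check the A1/A2 label, rose in A1/A2 libraries for 9 of 10 tested genes, among them Csf1r and Cx3cr1. Of all genes tested, 17.3% were called higher there. Levels below are CPM, transcripts per 1e6 of a library's summed transcripts. The method counts 1 molecular identifier per transcript at its 3' end, so levels need no correction for gene length.

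All 7 genes stood higher in every A1/A2 library than in any EMP library. Among genes that averaged 1 CPM or more, 17.2% did so too. H2-DMa and Ciita averaged less than 1 CPM over all 8 libraries (1.83 and 1.61 in A1/A2, 0 and 0.064 in EMP), so this share does not cover them. Cd74, the invariant chain, had 72.1, 14.6, 121.5 and 58.4 CPM in A1/A2 libraries 1 to 4, against 0.204, 0.369, 0.748 and 0.257 CPM in EMP libraries 1 to 4. The EMP values rest on 8 identifiers in all, each in a well of its own, and the A1/A2 values on 767. Library 3 was the highest and library 2 the lowest of the A1/A2 libraries.

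H2-Aa, the alpha chain of the I-A molecule, had 71.3, 23.9, 145.9 and 43.4 CPM in A1/A2 libraries, against 2.45, 1.85, 1.31 and 3.60 in EMP libraries. H2-Ab1, the beta chain that pairs with it, had 45.0, 16.3, 95.5 and 20.4 CPM in A1/A2 libraries, against 6.13, 5.54, 4.3 and 4.37 in EMP libraries. H2-Eb1, the beta chain of I-E, had 49.7, 11.0, 101.6 and 29.4 CPM in A1/A2 libraries, against 3.68, 2.58, 2.80 and 3.09 in EMP libraries. The order of the A1/A2 libraries was the same for these 3 genes and Cd74, with library 3 first, then 1, 4 and 2. The EMP libraries lay close together. The alpha chain of I-E has no entry analysed here.

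The loading and control genes were scarce. H2-DMa, a chain of the peptide exchange factor, had 4, 5, 8 and 5 identifiers in A1/A2 libraries and 0 in each EMP library. Set against a floor of 3 counts over the EMP group, the 22 identifiers in A1/A2 libraries gave an 11.4-fold higher level of H2-DMa. No EMP well of 655 held an H2-DMa identifier, and at a depth that gave at most 2 in any A1/A2 well this sets no limit on the share of cells that express it. H2-DMb1, its partner chain, had 14, 4, 24 and 6 identifiers in A1/A2 libraries, against a single identifier in EMP library 3, a ratio of 74.8 with a 95% interval of 12.8 to 3015. Ciita had 7, 2, 7 and 2 identifiers in A1/A2 libraries, against a single identifier in EMP library 4, a ratio of 28.0 with an interval of 4.43 to 1168. These intervals are exact and cover counting error alone, with identifiers treated as independent though several can share a well. The floor for H2-DMa carries no counting error of the A1/A2 identifiers.

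**Figure D1:**
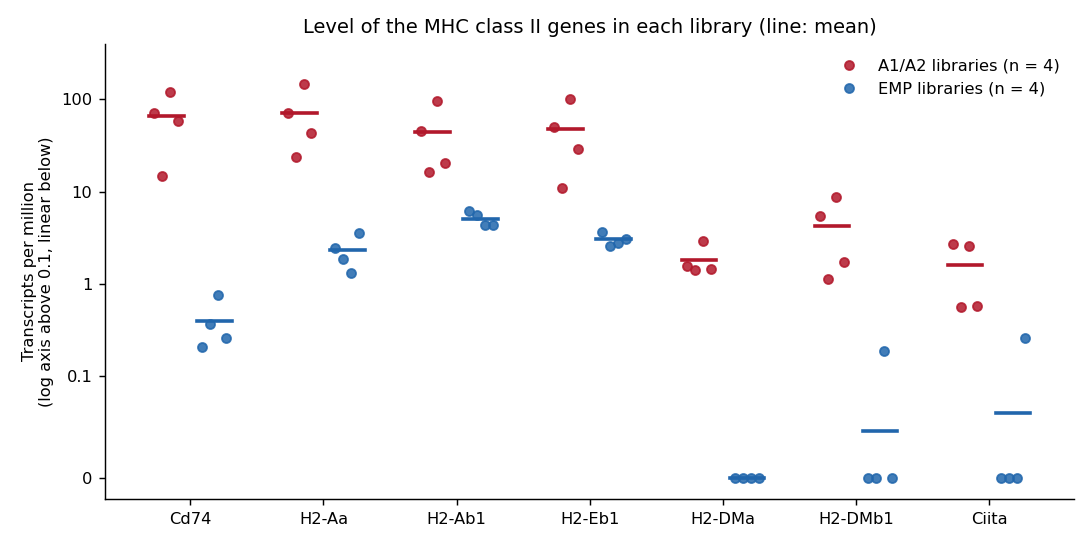
CPM of the 7 genes in the 4 A1/A2 libraries (red, left) and the 4 EMP libraries (blue, right), 1 point per library, with a line at the mean of 4. The axis is logarithmic above 0.1 and linear below. For each gene all red points lie above all blue points, and H2-DMa lies at 0 in all 4 EMP libraries.

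The difference between groups exceeded the spread between libraries for each of the 4 members that could be tested. Counts were summed per library and fitted over 11144 genes with edgeR's quasi-likelihood test and Benjamini-Hochberg adjustment at 5%. Of all genes tested, 17.3% were called higher in A1/A2 libraries. Cd74 averaged 66.7 ± 44.0 CPM in A1/A2 and 0.395 ± 0.245 in EMP libraries (SD, n = 4 each), a fitted log2 fold change of 7.21 ± 0.93 (SE) with an edgeR adjusted p of 0.0013. H2-Aa averaged 71.1 ± 53.5 and 2.30 ± 0.98 CPM, a log2 fold change of 4.95 ± 0.72 with an edgeR adjusted p of 0.0022. H2-Ab1 averaged 44.3 ± 36.4 and 5.09 ± 0.90 CPM, with a log2 fold change of 3.06 ± 0.63 and an edgeR adjusted p of 0.0086. H2-Eb1 averaged 47.9 ± 39.2 and 3.04 ± 0.47 CPM, with a log2 fold change of 3.93 ± 0.73 and an edgeR adjusted p of 0.0061. H2-DMa, H2-DMb1 and Ciita fell under the filter on low counts. Without that filter all 7 members were called higher, beside 9.28% of 23063 genes. The median of the 4 tested members was a log2 fold change of 4.44, and that of all tested genes was -0.02.

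The members were also compared without wells that hold marker transcripts of other lineages. The cut was broad: 77 of the 120 Cd79a/Ighm wells removed from the A1/A2 libraries and 25 of the 60 Ly6c2/Ccr2 wells also held Cx3cr1, a macrophage gene. With wells that hold a Cd79a or Ighm transcript (B cell genes) removed from both groups, the 4 members were still called higher, with log2 fold changes of 7.09 for Cd74, 4.78 for H2-Aa, 2.87 for H2-Ab1 and 3.96 for H2-Eb1 (edgeR adjusted p 0.013, 0.019, 0.037 and 0.016), beside 8.83% of all genes tested. With wells of the monocyte genes Ly6c2 or Ccr2 also removed, calls remained for H2-Aa at 4.24, H2-Ab1 at 2.16 and H2-Eb1 at 3.48, beside 7.05% of genes, and Cd74 no longer passed the filter. In these whole-library sums, more cells with the transcripts and more transcripts per cell cannot be told apart. The macrophage list moved with the same contrast, its sum ranging from 766 to 1044 CPM in A1/A2 libraries and from 60.2 to 96.0 in EMP libraries, and its part in the result was not tested. Depth per well differed too. With every well thinned to 1000 transcripts, H2-Aa alone passed the filter on low counts, which A1/A2 libraries alone can meet. It was called higher in A1/A2 libraries, at a log2 fold change of 4.31 (edgeR adjusted p = 4.0e-05), beside 88 of 2397 genes tested.

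At a depth fixed to 1000 transcripts per well, no kept well was lost and the groups did not overlap for any of the 4 most abundant members. Of all genes found in at least 10 thinned wells, 4.29% were likewise higher in every A1/A2 library. Cd74 was found in 6.79 ± 4.28% of A1/A2 wells and in 0 of 655 EMP wells. At this depth a count of 0 allows up to 0.458% of wells with an identifier, which is no limit on cells that express the gene, and unthinned Cd74 was found in 8 of the 655. By library, its share was 10.6, 2.10, 10.2 and 4.22% in A1/A2 libraries 1 to 4. H2-Aa was found in 7.83 ± 3.80% of A1/A2 wells and 0.954 ± 0.725% of EMP wells, H2-Ab1 in 6.67 ± 4.38% and 1.09 ± 0.79%, and H2-Eb1 in 7.37 ± 4.63% and 1.10 ± 0.79% (SD, n = 4 libraries each). Any of the 7 was found in 16.5 ± 7.8% of A1/A2 wells and 2.83 ± 1.62% of EMP wells. Unthinned, these shares were 50.9 ± 16.7% and 23.4 ± 1.3%. Taken singly and unthinned, each member but Ciita was found in a larger share of wells in every A1/A2 library than in any EMP library, as were 3.69% of 15372 genes. H2-DMa was found in no thinned well of either group, which at this depth does not separate it from H2-DMb1 (4 wells in A1/A2, 0 in EMP) or Ciita (5 and 0).

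Endoderm cells line the yolk sac and are not known for these genes, so wells rich in endoderm transcripts were set beside the rest. Endoderm genes were widespread: 287 A1/A2 and 459 EMP wells held at least 6 of 10, and 196 of those 287 also held Csf1r, so this cut took macrophage wells too. A narrower one, set after the values were seen, also asked for 0.5% of the well's transcripts. It left 128 A1/A2 wells with a median of 12743 transcripts and 259 EMP wells with a median of 33359. In the endoderm wells of the EMP libraries Cd74 was found in 3 of 259, H2-Aa in 21, H2-Ab1 in 51 and H2-Eb1 in 24. The other 396 EMP wells had a median of 14054 transcripts, and 34 of them held H2-Ab1. Its pooled level was 5.13 CPM in the EMP endoderm wells and 5.10 CPM in the other EMP wells, and thinned to 1000 transcripts it was found in 3 of 259 and 4 of 396. In these pooled values H2-Ab1 in the other EMP wells thus did not stand above endoderm wells. Whether its share in EMP wells measures expression was not tested. In EMP endoderm wells and the others, H2-Eb1 had 2.22 and 4.21 CPM, H2-Aa 2.22 and 2.17, and Cd74 0.256 and 0.638. Thinned, H2-Eb1 was found in 0 of 259 and 7 of 396, H2-Aa in 1 and 5, and Cd74 in 0 and 0. Whether these transcripts are stray or belong to the cells was not tested. In endoderm wells of the A1/A2 libraries, H2-Aa was found in 34 of 128 and Cd74 in 17, against 132 and 75 of the other 440 wells, whose median depth was 4515. Of the 128 wells, 74 also held Csf1r, so they are not used as a background level. Csf1r was also held by 75 of the 259 EMP endoderm wells, so these are not pure endoderm either. Thinned to 1000 transcripts, Cd74 was found in 3 of the 128 endoderm wells and in 34 of the other 440. These counts pool wells of 4 libraries and carry no test.

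The make-up of the transcripts differed as well. Cd74 and the chain genes H2-Aa, H2-Ab1 and H2-Eb1 are called the core genes here. Over these 4, A1/A2 wells held 2634 identifiers and EMP wells 210. Cd74 gave 29.1% of them in A1/A2 and 3.81% in EMP, and H2-Ab1 gave 19.2% in A1/A2 and 47.6% in EMP. H2-Aa gave 31.0% and 20.5%, and H2-Eb1 20.7% and 28.1%. H2-Ab1 was the most abundant of the 4 in each EMP library and in none of the A1/A2 libraries, where Cd74 led in libraries 1 and 4 and H2-Aa in libraries 2 and 3. Endoderm wells of the EMP libraries had the same leader, with H2-Ab1 at 52.2% and Cd74 at 2.61%. No test was run on these shares.

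**Figure D2:**
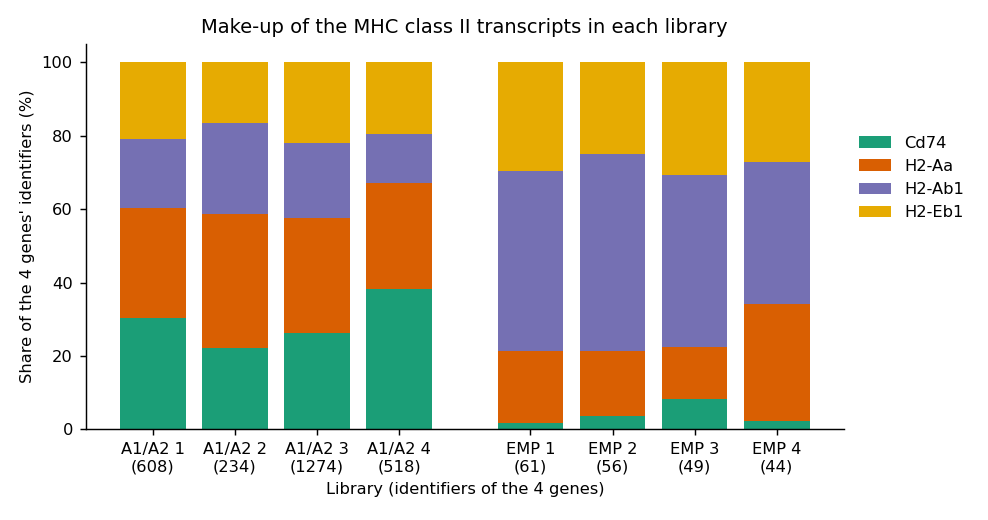
Share of each of the 4 core genes among their summed identifiers, in percent, in A1/A2 libraries 1 to 4 and EMP libraries 1 to 4, with the number of identifiers under each bar. Cd74 gives 22.2 to 38.2% in A1/A2 libraries and 1.64 to 8.16% in EMP libraries, where H2-Ab1 is the largest part.

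Few wells carried most of the A1/A2 transcripts. Core identifiers were found in 281 of 568 A1/A2 wells, but 10 wells held 50% of them and 96 wells held 90%. In 125 of the 281 wells there was a single identifier. The richest well held 95 of 608 core identifiers in library 1, 61 of 234 in library 2, 240 of 1274 in library 3 and 318 of 518 in library 4. In library 4 that 1 well was thus 61.4% of the signal, and it held 165 of the library's 198 Cd74 identifiers. No EMP well held more than 5 core identifiers, and 151 of 655 EMP wells held any.

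**Figure D3:**
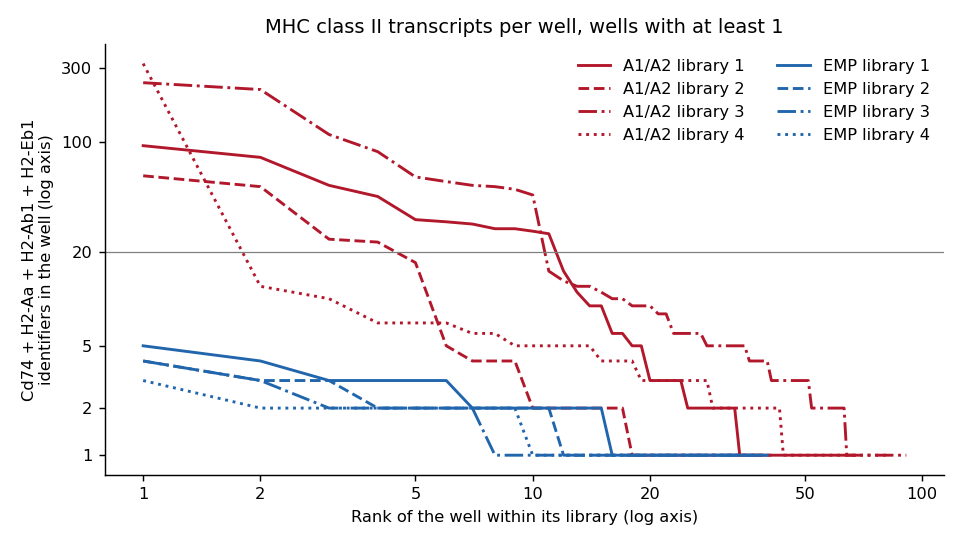
Core identifiers per well against the rank of the well within its library, both axes logarithmic, for wells with at least 1, with a line at 20. Each red curve (A1/A2) starts far above the blue ones (EMP) and drops steeply, to 10 wells at or above 20 in library 3 and 1 in library 4, whereas blue curves start at 3 to 5.

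Wells with at least 20 core identifiers numbered 26, all in A1/A2 libraries (11, 4, 10 and 1 in libraries 1 to 4), and held 73.1% of the core identifiers. This limit was set after the values were seen. The lowest well inside it held 23 and the highest outside it 17. These 26 wells fell into separate sets by the summed identifiers of Igkc, Cd79a, Cd79b and Ms4a1, which encode the kappa light chain, both signalling chains of the B cell receptor, and CD20. In 16 wells the sum was 14 or more, and in the other 10 it was at most 2.

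The 16 wells with B cell transcripts came from libraries 1, 2 and 3 (8, 3 and 5 wells) and held 635 core identifiers, 24.1% of the total. Their median depth was 4488 transcripts, with 1 well at 73572. Their median counts were 10.5 for Cd74, 10.5 for H2-Aa, 8.0 for H2-Ab1 and 7.5 for H2-Eb1, beside 19.5 for Igkc. All 16 held Ighm and all 4 core genes. Ctss, a gene of the class II pathway, was found in 12 of the 16 wells (at most 4 identifiers). Myeloid transcripts were found as well: C1qb in 8 (at most 3), Csf1r in 6 and Ly6c2 in 3 (at most 1 each), and Ccr2 in none. Over all A1/A2 wells, 23 had a sum of at least 5 for the 4 B cell genes (11, 3, 6 and 3 in libraries 1 to 4), and 22 of the 23 held a core identifier. No EMP well reached a sum of 5.

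The other 10 wells held 1291 core identifiers, 49.0% of the total, with medians of 29.5 for Cd74, 28.5 for H2-Aa, 23 for H2-Ab1 and 11.5 for H2-Eb1. All 10 held Csf1r, the receptor for the macrophage growth factor, and Ctss, the protease that trims the invariant chain, at a median of 20 identifiers, against 1.0 in the 16 wells above. Ccr2, a receptor of monocytes, was found in 7 of the 10, Ly6c2 in 5 and Cx3cr1 in 2. Of the B cell genes, Ighm was found in 4 of the 10 (at most 11 identifiers), Igkc in 2, Cd79b in 1, and Cd79a and Ms4a1 in none, so 4 of these wells also fall in the Cd79a/Ighm class below. Of the dendritic cell genes only Itgax and Flt3 were looked at in these wells. Itgax was found in 4 (at most 8 identifiers) and Flt3 in none. Depth ran from 3909 to 163751 transcripts, with a median of 8775. The fetal transcript H19 was found in all 26 wells, with medians of 8.0 and 6.0 identifiers, and Lin28b, another fetal transcript, in 1 of 16 and 1 of 10. A Y-linked transcript was found in 5 of 16 and 1 of 10, and Xist in 8 of 16 and 7 of 10. The deepest well of each set, with 73572 and 163751 transcripts, held the most H19, at 508 and 684 identifiers. Whether these transcripts are the cell's own or stray was not tested.

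**Figure D4:**
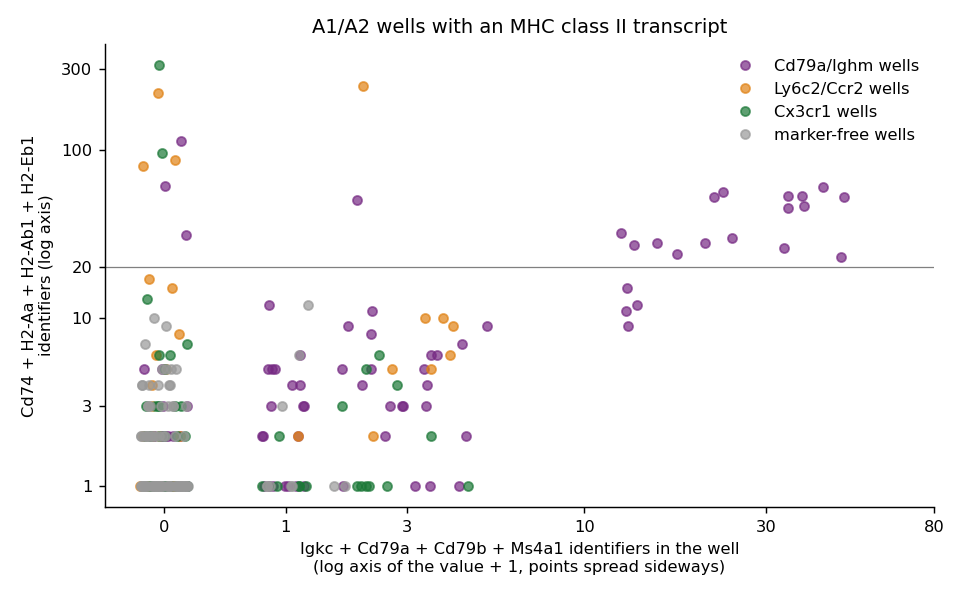
Core identifiers in each A1/A2 well that has any, against the summed identifiers of 4 B cell genes, coloured by class of well, both on log axes (value + 1 on the horizontal one), with a line at 20. Above the line, 16 wells lie at B cell sums of 14 or more and 10 wells at sums of 2 or less.

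Wells were also classed by the genes that mark lymphoid cells, monocytes and A2 macrophages. A well with Cd79a or Ighm came first, then one with Ly6c2 or Ccr2, then one with Cx3cr1, and the rest were called marker-free. In the A1/A2 libraries the classes held 120, 60, 94 and 294 wells with median totals of 33280, 17311, 18579 and 2556 transcripts. Finding a marker thus went with depth, and an Ighm transcript alone does not make a B cell: 77 of the 120 Cd79a/Ighm wells also held Cx3cr1. The macrophage list summed to 1314 ± 122 CPM in Cd79a/Ighm wells and 1055 ± 288 CPM in Cx3cr1 wells (SD, n = 4 libraries).

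The 120 Cd79a/Ighm wells held 48.2 ± 27.4% of all member transcripts of a library (SD, n = 4). The share was 64.0, 75.5, 39.6 and 13.8% in libraries 1 to 4. The same wells held 49.7, 33.5, 30.3 and 44.0% of all transcripts of these libraries, 39.4 ± 9.1% on average, so the members' share stood above that of all genes in libraries 1 to 3 and below it in library 4. Over the core genes pooled, 43.2% lay in Cd79a/Ighm wells, 28.7% in Ly6c2/Ccr2 wells, 20.3% in Cx3cr1 wells and 7.82% in marker-free wells, beside 39.1, 17.8, 22.0 and 21.1% of all transcripts. In library 4, 70.9% of the core transcripts lay in Cx3cr1 wells, against 18.9, 3.84 and 3.52% in libraries 1 to 3, and its richest well was of that class. Of the scarce members, 14 of 22 H2-DMa identifiers, 21 of 48 H2-DMb1 and 12 of 18 Ciita lay in Cd79a/Ighm wells. Marker-free wells held 1 H2-DMa identifier and none of H2-DMb1 or Ciita.

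**Figure D5:**
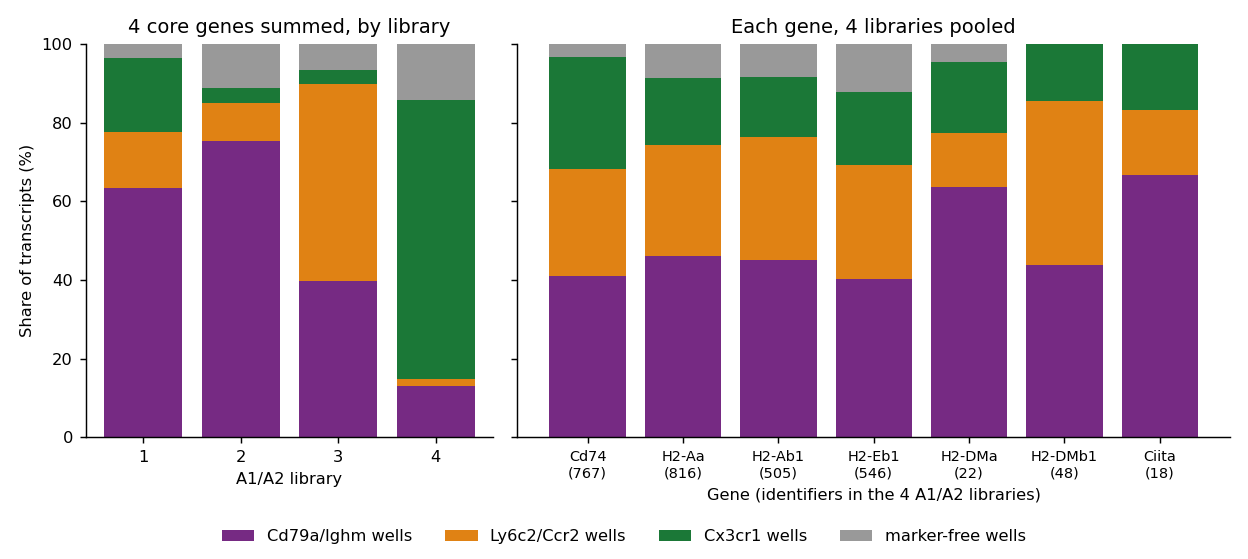
Share of transcripts, in percent, that lay in each class of well in the A1/A2 libraries: the 4 core genes summed in each library (left) and each member over the 4 libraries pooled (right, with its number of identifiers). Cd79a/Ighm wells hold 13 to 75.2% of the core transcripts, and Cx3cr1 wells hold 70.9% in library 4.

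Combinations of markers separated the wells further. The 31 wells with Cd79a or Ighm, but neither Cx3cr1 nor a monocyte gene, held 1560 core CPM, against 57.5 in the 54 wells with Cd79a or Ighm and Cx3cr1. The 12 wells with Cd79a or Ighm and Ly6c2 or Ccr2 but no Cx3cr1 held 1337 CPM. The 35 wells with Ly6c2 or Ccr2 alone held 828 CPM, against 57.0 in the 25 that also held Cx3cr1. Of the 677 core identifiers in these 35 wells, single wells held 240, 217, 87 and 80, all but the last in library 3. The 94 wells with Cx3cr1 alone held 199 CPM and the 294 marker-free wells 79.1. Of the 535 core identifiers in these 94 wells, single wells held 318 (library 4) and 95 (library 1). The levels by combination pool the libraries, so a few wells can set them. Wells with Cx3cr1 beside another marker were deep, with medians of 47815 to 50705 transcripts, against 7255 to 8601 for those without it. Over whole libraries, wells with Cx3cr1 held 110, 12.5, 104 and 176 core CPM in libraries 1 to 4, against 634, 148, 1013 and 85.4 in wells without it. The order held in libraries 1 to 3 and was the other way in library 4. There, 318 of the 439 core identifiers in wells with Cx3cr1 lay in 1 well, which held 1 Cx3cr1 identifier.

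Core levels within a class varied widely between libraries. Cd79a/Ighm wells had 304, 148, 611 and 44.8 core CPM in libraries 1 to 4. Ly6c2/Ccr2 wells had 405, 35.3, 602 and 38.1. Cx3cr1 wells had 172, 10.1, 154 and 433, and marker-free wells had 52.1, 31.5, 150.8 and 91.2. In libraries 1 to 3 the first and second classes both stood above the third, and in library 4 the third stood above all others. In library 4, 318 of the 366 core identifiers in Cx3cr1 wells lay in 1 well.

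With library as a block, no member was called between Cd79a/Ighm and Cx3cr1 wells, where edgeR's quasi-likelihood test called 1.65% of 7947 genes. Log2 fold changes of Cd79a/Ighm over Cx3cr1 wells were -0.08 ± 1.67 (SE) for Cd74, 0.52 ± 1.19 for H2-Aa, 0.48 ± 1.11 for H2-Ab1 and 0.04 ± 0.81 for H2-Eb1. Without library 4, H2-Ab1 was called at 1.69 ± 0.31 (edgeR adjusted p = 0.0064), beside 0.138% of genes called higher, and Cd74 was at 1.90 ± 0.53 with an edgeR adjusted p of 0.37. The light chain gene Igkc rose in Cd79a/Ighm wells with a log2 fold change of 4.02 (edgeR adjusted p = 4.6e-08). The standard errors of the members span more than a doubling either way for Cd74, H2-Aa and H2-Ab1.

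Between Ly6c2/Ccr2 and Cx3cr1 wells edgeR called no member and 0% of 7167 genes, although 491 genes had an unadjusted p under 0.05, and DESeq2 also called 0. Log2 fold changes were 0.58 ± 1.39 for Cd74, 0.69 ± 1.03 for H2-Aa, 0.66 ± 0.71 for H2-Ab1 and 0.26 ± 0.42 for H2-Eb1. Without library 4 Cd74 was called at 2.20 ± 0.33 and H2-Aa at 1.82 ± 0.29 (edgeR adjusted p = 0.0022 and 0.0034), beside 0.447% of genes called higher. Without library 3 the sign turned for these 4 members, to values between -0.050 and -0.42.

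Cx3cr1 wells against marker-free wells gave no call among the members, beside 7.2% of 7344 genes called by edgeR. Cd74 stood at a log2 fold change of 2.54 ± 0.71 (edgeR adjusted p = 0.10), H2-Aa at 0.63 ± 0.55, H2-Ab1 at 0.54 ± 0.42 and H2-Eb1 at 0.28 ± 0.33. Without library 4, Cd74 was at 1.03 ± 0.53 and the other 3 lay between -0.0086 and -0.097. Where a class needed at least 2 identifiers of its gene, H2-Eb1 was called lower in Cx3cr1 wells, at -1.20 ± 0.35 (edgeR adjusted p = 0.030), beside 15.2% of genes called lower. Cx3cr1 wells also held more of the macrophage list, 3 of 6 tested genes being called higher, and 1 of 10 endoderm genes was called lower. In Cd79a/Ighm against Cx3cr1 wells, 2 of 10 endoderm genes were called lower and 0 of 8 macrophage genes were called. The part of these cells in the members' values was not tested.

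Ciita transcripts lay in wells that held the other members. Of 16 A1/A2 wells with Ciita, all 16 held H2-Aa, 15 held H2-Ab1, 15 held H2-Eb1 and 14 held Cd74. Over all A1/A2 wells H2-Aa was found in 29.2%, H2-Ab1 in 21.1%, H2-Eb1 in 28.7% and Cd74 in 16.2%. Of 26 wells with H2-DMb1, 24 held H2-Aa and 10 held Ciita. Of 17 with H2-DMa, 12 held H2-Aa and 7 held H2-DMb1. All 7 members were found together in 5 A1/A2 wells, and at least 5 in 23. No EMP well held more than 3 members, and the single EMP well with Ciita held none of the other 6. Rich wells give every member more chances to be seen, so these counts describe the wells and carry no test.

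CIITA does not touch DNA itself but is held by factors bound to the X and Y boxes just upstream of class II genes, the X box being bound by RFX and the Y box, an inverted CCAAT, by NF-Y. Since the members were found together, the promoters of 3 of them are printed, from RefSeq on GRCm38.p6, as 120 bases that end 1 base before the annotated start, 5' to 3' along the gene. Of the 7 members, 4 have windows in the table used. H2-Aa lies at chr17:34287824-34287943 on the minus strand, H2-Eb1 at chr17:34305747-34305866 and H2-DMb1 at chr17:34153071-34153190, both on the plus strand. The build of the deposited counts is not given in the sources used here, and the sequences do not depend on it. Capitals mark TGATTGG, a Y box, the core ATTGG on either strand (CCAAT on the other), and the X box TAGCAACTGATG, searched with any base at the eighth letter, with its core AGCAAC.
H2-Aa: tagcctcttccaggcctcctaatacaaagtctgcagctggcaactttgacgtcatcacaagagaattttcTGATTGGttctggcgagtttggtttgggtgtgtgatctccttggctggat
H2-Eb1: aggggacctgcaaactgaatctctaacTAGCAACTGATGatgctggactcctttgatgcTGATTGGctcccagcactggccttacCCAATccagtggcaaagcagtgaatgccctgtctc
H2-DMb1: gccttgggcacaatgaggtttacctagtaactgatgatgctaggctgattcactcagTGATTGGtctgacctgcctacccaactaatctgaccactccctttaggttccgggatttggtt
Each of the 3 holds TGATTGG on the given strand, from 50 to 44 bases before the start in H2-Aa, 61 to 55 in H2-Eb1 and 63 to 57 in H2-DMb1. This motif, added after the windows were seen, lies on either strand of 7.82% of the 32851 promoter windows of 300 bases in the table, and its core ATTGG, which it contains, in 37.4%. The X box was found in H2-Eb1, from 93 to 82 bases before the start, and with that letter free in 3 of all windows. Its core AGCAAC lies in 14.8% of windows. H2-Aa and H2-DMb1 hold no exact match to either X box spelling in these windows. H2-DMa has 2 windows, neither with TGATTGG.

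Other genes of the class II pathway moved less evenly. Of 26 listed, 15 were tested between the groups, with a median log2 fold change of 0.13. Of these 5 rose in A1/A2 libraries and 2 fell, beside 1931 and 1720 of all 11144 genes tested. Cd86, which encodes a costimulatory ligand for T cells, rose by 3.29 ± 0.32 (edgeR adjusted p = 2.3e-05). Irf8, a myeloid transcription factor, rose by 2.84 ± 0.24, and March1, a ligase that removes surface class II, by 3.17 ± 0.39. Ctss, which trims the invariant chain, rose by 5.57 ± 0.84 (edgeR adjusted p = 0.0024). The RFX subunits Rfxap and Rfxank and the NF-Y subunits Nfya, Nfyb and Nfyc are named for their role and not by p. They were tested and did not pass, with log2 fold changes between -0.30 and 0.47. Between Cd79a/Ighm and Cx3cr1 wells 1 of 12 tested pathway genes rose (Irf8, 0.60) and 2 fell (Ctsl, -0.56, and Lgmn, -0.60, both lysosomal proteases). Between Cx3cr1 and marker-free wells 2 of 12 rose (Ctss, 1.72, and Irf8, 0.98) and 2 fell (Ifi30, -0.83, a lysosomal reductase, and Lgmn, -0.88). None of 12 was called between Ly6c2/Ccr2 and Cx3cr1 wells.

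MHC class I genes display peptides from inside the cell and are made by most cells. In A1/A2 libraries 6 of 7 tested rose, beside 17.3% of all genes tested. The 7 had a median log2 fold change of 1.35. B2m, the light chain, rose by 1.63 ± 0.17 (edgeR adjusted p = 8.0e-05), H2-T23 by 2.13 ± 0.29, Tapbp by 1.35 ± 0.22 and Erap1 by 1.29 ± 0.26. Within the A1/A2 libraries B2m rose in Cx3cr1 wells against marker-free wells, by 0.97 ± 0.15 (edgeR adjusted p = 0.0017), and 0 of 7 and 0 of 6 class I genes were called in the comparisons of Cd79a/Ighm and of Ly6c2/Ccr2 wells with Cx3cr1 wells.

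Markers of other cell types moved with the groups too. Of 13 listed B cell genes, 3 passed the filter on low counts between A1/A2 and EMP libraries, which A1/A2 libraries alone can meet. All 3 were called higher, beside 17.3% of all genes tested. Log2 fold changes were 6.13 for Igkc, 4.77 for Ighm and 2.74 for Cd79b. All 12 B cell genes in the table were found in both groups, summing to 54.9 to 217 CPM in A1/A2 and 3.34 to 9.35 in EMP libraries. Of 7 monocyte genes 5 rose (Ly6c2 at 6.02) and 1 fell (Fn1 at -0.73). Of 4 dendritic cell genes 2 rose (Wdfy4 at 1.59 and Batf3 at 1.05), and Zbtb46 at -1.08 and Xcr1 at 0.80 were not called. The 1 tested T cell gene and 5 X- and Y-linked genes gave no call. The 1 tested neutrophil gene, Mpo, rose by 1.24, 1 of 6 erythroid genes fell, 7 of 10 endoderm genes fell, and 1 of 8 fetal genes rose and 5 fell. The dendritic cell list summed to 31.8 to 47.9 CPM in A1/A2 and 12.6 to 27.4 in EMP libraries. Removing the Cd79a/Ighm wells left 33 A1/A2 wells with Igkc. The part of these cell types in the members' levels was not tested.

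The genes whose levels followed the members most closely over the 568 A1/A2 wells were Mndal (Pearson's r = 0.60), Igkc (0.54), Ifi203 (0.53), Ighm (0.52), Ms4a1 (0.51), Ighd (0.51), Ms4a4c (0.50) and H2-D1 (0.50), among 11774 genes found in at least 20 wells. Igkc, Ighm, Ms4a1 and Ighd among them are B cell genes. Over the 448 wells without Cd79a and Ighm they were Axl (0.47), Ms4a4c (0.46), Ifi203 (0.45), Irf7 (0.43), Mndal (0.42), Ctss (0.42), Ifi205 (0.42) and Ifi47 (0.41). Cx3cr1 had an r of -0.03 over all wells and 0.05 without Cd79a and Ighm wells. Each member set against the sum of the other 6 gave 0.74 for H2-Ab1, 0.73 for H2-Aa, 0.72 for Cd74, 0.67 for H2-Eb1, 0.53 for H2-DMb1, 0.52 for Ciita and 0.40 for H2-DMa. These are correlations of log2 transcripts per 10000 plus 1 over wells that share 4 libraries and differ in depth, and are descriptions.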

How the data were processed

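Per the labels' protocols, cells stained for CD45 and CD11b were sorted as CD45-positive cells into multi-well plates, and libraries followed mCEL-Seq2. The submitters' processing notes name BWA 0.6.2-r126 and also Seurat, with no role for either. Genome build and annotation: not given in the sources used here. The deposited tables hold, per the values, estimated counts of the authors for each gene in each well, with no scaling. Each returns a whole number of identifiers, to within 4e-12, once a correction for reuse of 4096 random identifiers is taken back. The authors' deposited series table holds expected counts for 689 of the same wells, identical to the per-library tables. Those tables were declared under the unit other, as estimated counts.

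Wells under 1000 transcripts were left out. Sums per library, or per library and class (at least 3 wells), were rounded and tested with edgeR 4.0.16 in R 4.3.3 (TMM, filterByExpr, robust quasi-likelihood fit, Benjamini-Hochberg at 5%). Class comparisons had library as a block and left out Cd79a, Ighm, Ly6c2, Ccr2 and Cx3cr1. DESeq2 1.42.0 was an alternative. Standard errors are the log2 fold change over the square root of F. Thinning used 1 fixed seed. No caller for doublets was run, and a well with genes of several lineages may hold more than 1 cell. The members, lists and rules were chosen with earlier results of these data known. Text names the 7 members, up to 4 genes per list by smallest p, and the 8 genes most correlated with the members. On simulated counts the edgeR test recovered 99.49% of 198 changed genes (11211 genes, A1/A2 against EMP) and 98.48% of 197 (7983 genes, Cd79a/Ighm against Cx3cr1 wells), with 3 and 8 false calls. The median absolute log2 fold change there was 2.02 and 1.99. These rates do not carry over to the members, whose standard errors were 0.81 to 1.67 between Cd79a/Ighm and Cx3cr1 wells. Recovery at such a spread was not tested.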

Additional observations from a re-analysis of the deposited data

Results flagged for a closer look

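Over 39 sets of 4 libraries, 6 had 1 library far from the other 3, all with few identifiers. Chance alone sets apart about 1 in 20 such sets, but in 5 of the 6 the other libraries were at 0, where any identifier in 1 library stands apart by construction and that rate does not apply. H2-DMa stood highest in A1/A2 library 3, at 2.91 CPM from 8 identifiers, against 4 to 5 identifiers in the other A1/A2 libraries. In Ly6c2/Ccr2 wells H2-DMa was found in library 3 alone, at 2.82 CPM from 3 identifiers, and so was Ciita, at 2.82 CPM from 3 identifiers. In marker-free wells H2-DMa was found in library 2 alone, at 1.21 CPM from 1 identifier. In EMP libraries H2-DMb1 was found in library 3 alone, at 0.187 CPM, and Ciita in library 4 alone, at 0.257 CPM, each from 1 identifier.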

How the results depend on the processing

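Between A1/A2 and EMP libraries, every member that could be tested was called higher under each of 19 alternatives. A gene could pass the filter on low counts through A1/A2 libraries alone, as Cd74 did with 8 EMP identifiers in all. Counts of calls among members that passed are thus no independent support. All 7 were called with no filter on low counts, 3 of 3 tested without Cd79a/Ighm and Ly6c2/Ccr2 wells, and 1 of 1 after thinning to 1000 transcripts per well. The number of all genes called, 3651, was 786 without wells above 3 times the median total, 1417 without Cd79a/Ighm wells, 1027 without Ly6c2/Ccr2 wells too, and 117 after thinning. With the replicate number as a block, 4736 genes and the same 4 members were called. The labels do not state that the numbers pair the libraries, so the reported fit has no such block. Deviations of same-numbered libraries correlated at 0.22, 0.39, -0.02 and 0.22, and those of differently numbered libraries at -0.28 to 0.18. Whether the numbers pair the libraries was not tested. The difference in the share of wells with a member, 13.6 percentage points, was 27.6 without thinning and 10.5 to 16.6 when 1 library was left out.

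Within the A1/A2 libraries calls and signs changed with the setting. Leaving out 1 library gave these ranges of log2 fold change. Cd79a/Ighm over Cx3cr1 wells: 0 to 1 members called, Cd74 -0.73 to 1.90, H2-Eb1 -0.26 to 0.96. Ly6c2/Ccr2 over Cx3cr1 wells: 0 to 2 members called, Cd74 -0.050 to 2.20, H2-Aa -0.058 to 1.82, H2-Ab1 -0.32 to 1.52, H2-Eb1 -0.42 to 0.87. Cx3cr1 over marker-free wells: H2-Aa -0.0086 to 1.21, H2-Ab1 -0.097 to 0.90, H2-Eb1 -0.094 to 0.53. Cd74 in Cd79a/Ighm over Cx3cr1 wells, -0.08, was 1.56 with DESeq2, 1.80 without wells above 3 times the median total, 2.20 without the richest well of each library (chosen after seeing the data) and 2.57 where a class needed 2 identifiers. Cx3cr1 over marker-free wells, without the richest wells, gave -1.03 for H2-Aa and -0.81 for H2-Eb1. With 2 identifiers it gave 1 member called, at -1.91 for Cd74, -1.15 for H2-Aa, -1.21 for H2-Ab1 and -1.20 for H2-Eb1, and with no filter it gave 1 member called, Cd74 at 2.54. The cause was not tested. Without the replicate block no member was called in these 3 comparisons, and all-gene calls were 0, 0 and 440, against 131, 0 and 529. The 131 ranged from 1 (without library 2) to 351 (without library 1), was 23 with DESeq2, 338 with no filter, 21 without wells above 3 times the median and 0 with 2 identifiers, and the 529 from 111 (without library 1) to 461. The 529 was also 261 with DESeq2, 865 with no filter, 11 without wells above 3 times the median and 2383 with 2 identifiers. Between Ly6c2/Ccr2 and Cx3cr1 wells, 0 genes were called as reported, 37 with no filter and 47 without library 4. Without wells above 3 times the median no member could be tested between Cx3cr1 and marker-free wells. The share in Cd79a/Ighm wells, 48.2%, ranged from 39.1 to 59.7% when 1 library was left out. Low counts limit H2-DMa, H2-DMb1 and Ciita throughout.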

Other observations

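The wells under 1000 transcripts, 200 in A1/A2 and 113 in EMP libraries, were in no comparison. They held 44 core identifiers in A1/A2 libraries and 11 in EMP libraries, never more than 3 in a well. Their levels were 407, 141, 550 and 361 CPM in A1/A2 libraries 1 to 4, and 70.8, 0, 453 and 71.6 CPM in EMP libraries 1 to 4. The groups overlapped there through EMP library 3.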
